A study of Mus musculus with 12 samples.

Results

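The prostaglandin pathway was followed through 8 genes of the deposited single-cell table: the cyclooxygenases Ptgs1 and Ptgs2, the prostaglandin E synthases Ptges, Ptges2 and Ptges3, the degrading enzyme Hpgd, and the prostaglandin E2 receptors Ptger2 and Ptger4. They were taken by name, and all 8 were found among the 21743 genes of the table. Grem1, a secreted antagonist of bone morphogenetic proteins, was read beside Ptgs2 because both were asked after in the same tumor cells.

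The material came from 2 mice with MMTV-Cre, a Cre recombinase driven in mammary epithelium, and floxed Brca1 alleles on both chromosomes (Brca1 fl/fl), on a background mixed from C57BL/6 and 129/Sv. The labels of these tumor-bearing mice give neither age nor reproductive state. The methods describe young virgin or pregnant females for gland preparation in general, without tying these animals to it. From each animal the fourth mammary glands (MG1, 2 libraries; MG2, 2 libraries) and a tumor (MT1, 5 libraries; MT2, 3 libraries) were digested in a medium that held insulin, EGF and hydrocortisone, depleted of hematopoietic and endothelial cells, and sequenced by Drop-seq. This method tags the RNA of single cells in droplets, so that molecules can be counted by their tags (unique molecular identifiers, UMIs). Gland and tumor carry the same genotype, so no wild-type tissue enters any comparison, and cells that kept their Brca1 alleles are not told apart. No group holds more than 1 animal. Except in the fit with the 2 animals as replicates, the p-values rest on the spread between libraries of the same gland or tumor. They cover these animals only.

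Cyclooxygenases turn arachidonic acid, released from membranes by phospholipases, into prostaglandin H2; Ptgs1 is the form present in many resting tissues and Ptgs2 (also called COX-2) the form induced by cytokines and growth factors. Prostaglandin E synthases then make prostaglandin E2, of which Ptges is the inducible microsomal enzyme, Ptges2 a second membrane-associated enzyme and Ptges3 (p23) a cytosolic enzyme that is also a co-chaperone of Hsp90. Prostaglandin E2 acts through receptors that include EP2 (Ptger2) and EP4 (Ptger4), both coupled to cyclic AMP, and 15-hydroxyprostaglandin dehydrogenase (Hpgd) inactivates it.

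The table held 21157 cells, with 105 to 4874 cells and 693333 to 14841414 UMIs per library. Pairs of libraries shared 0 to 7 cell barcodes. The smallest library, MG1 replicate 2, kept 71 cells after stromal clusters were left out. Without it, the changes of Ptgs1, Ptgs2, Ptges2, Hpgd, Ptger2 and Ptger4 in mouse 1 kept their direction and call, and Ptges3 gained one (-0.57, adjusted p = 0.00497). Where MG1 replicate 1 is left out instead, MG1 is that small library alone, its spread is taken to be like that of the other groups, and a lost call there says little about the size of a change. Brca1 itself had 0 UMIs in both MG1 libraries, 8 and 11 in MG2, 28 to 53 in MT1 and 123 to 153 in MT2. Per 1000000 UMIs of the scaled library total this was 1.79 and 2.45 in MG2, 7.67 to 16.1 in MT1 and 9.41 to 12.3 in MT2, so the tumors overlapped. These 3′ reads do not show whether the floxed part was removed.

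The promoters of Ptgs1, Ptgs2, Ptges and Grem1 are printed first, as those of the genes for which every MT2 library was above every other library. Ptger2 also had its highest mean in MT2, but its libraries overlapped those of MT1, and its promoter is not shown. Each is the stretch from 250 bases before to 50 after the RefSeq start in GRCm38.p6, read 5′ to 3′ on the gene's strand. Capitals mark a TGACG half-site of the cyclic AMP response element, a CACGTG E-box, a TATAAA box or a GGGCGG box, searched on both strands.
Ptgs1, chr2:36230176-36230475, plus strand: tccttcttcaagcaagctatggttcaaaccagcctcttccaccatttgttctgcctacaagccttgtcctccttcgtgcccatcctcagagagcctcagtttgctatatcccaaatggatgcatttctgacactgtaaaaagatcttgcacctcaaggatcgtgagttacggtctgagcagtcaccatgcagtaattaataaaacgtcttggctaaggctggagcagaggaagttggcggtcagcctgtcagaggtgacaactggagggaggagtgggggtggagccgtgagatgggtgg
Ptgs2, chr1:150099781-150100080, plus strand: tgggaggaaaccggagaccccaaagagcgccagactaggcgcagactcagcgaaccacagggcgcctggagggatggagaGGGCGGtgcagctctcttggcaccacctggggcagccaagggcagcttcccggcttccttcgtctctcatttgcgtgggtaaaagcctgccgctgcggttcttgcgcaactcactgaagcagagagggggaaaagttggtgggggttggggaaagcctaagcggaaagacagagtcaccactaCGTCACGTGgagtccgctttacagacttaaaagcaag
Ptges, chr2:30903248-30903547, minus strand: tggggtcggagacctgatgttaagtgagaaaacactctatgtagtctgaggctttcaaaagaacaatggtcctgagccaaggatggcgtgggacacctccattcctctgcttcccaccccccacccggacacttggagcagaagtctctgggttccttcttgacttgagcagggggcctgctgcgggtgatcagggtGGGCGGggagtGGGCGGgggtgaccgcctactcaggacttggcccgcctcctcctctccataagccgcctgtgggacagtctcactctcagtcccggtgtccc
Grem1, chr2:113758599-113758898, minus strand: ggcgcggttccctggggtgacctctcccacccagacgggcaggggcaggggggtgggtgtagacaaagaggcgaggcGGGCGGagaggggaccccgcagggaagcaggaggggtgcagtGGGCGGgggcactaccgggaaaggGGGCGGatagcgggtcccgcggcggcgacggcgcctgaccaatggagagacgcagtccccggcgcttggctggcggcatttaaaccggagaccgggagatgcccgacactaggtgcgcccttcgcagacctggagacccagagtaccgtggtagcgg
The Ptgs2 stretch holds a TGACG half-site at base 264 from its first base that overlaps a CACGTG E-box at base 267. TGACG is in 20.8% of the 32851 RefSeq promoters of this length and CACGTG in 7.15%. The GGGCGG box, in 35.7% of them, is in the Ptgs2, Ptges and Grem1 stretches and not in that of Ptgs1, which holds none of the marked motifs. No one of these 4 motifs is in all 4 stretches, and a match is letters only, not a bound site.

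Ptgs2 (chromosome 1, 150100031 to 150108227, plus strand, protein-coding, GRCm38) was higher in both tumors than in the gland of the same mouse, and by far the higher in MT2. Levels are UMIs of the gene per 1000000 UMIs (CPM) on the TMM-scaled library total, summed over the 20160 cells that lay in no stromal cluster (fibroblast-like, immune-like or endothelial-like). In MG1 the libraries had 7.89 and 5.38 CPM, in MG2 29.8 and 23.8 CPM. The MT1 libraries ranged from 66.9 to 135.5 CPM, with 104.7, 78.7 and 82.0 CPM in the others. The MT2 libraries had 2299, 1825 and 2275 CPM. No 2 groups overlapped.

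The log2 fold change of Ptgs2 was 3.66 ± 0.37 (SE) in MT1 against MG1 (adjusted p = 3.82e-07) and 6.32 ± 0.31 in MT2 against MG2 (adjusted p = 7.45e-12). The change in mouse 1 was smaller than in mouse 2 by 2.65 ± 0.54 on the log2 scale (adjusted p = 6.74e-04 for the difference, by edgeR's quasi-likelihood test with Benjamini-Hochberg adjustment). That difference was -2.01 with adjusted p = 0.265 when MG1 replicate 1, the larger MG1 library, was left out, which left MG1 with 1 library of 71 cells and 3 Ptgs2 UMIs, and -2.65 with adjusted p = 0.00127 without MG1 replicate 2. MT1 against MT2 gave -4.52 ± 0.19 (adjusted p = 7.08e-13). With stromal cells kept in the sums, the change in mouse 1 was 0.98 (adjusted p = 0.00416) and that in mouse 2 was 5.22, both still called.

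Ptgs1 (chromosome 2, 36230426 to 36252272, plus strand) was low in both glands and higher in both tumors. Its libraries had 3.55 and 1.80 CPM in MG1, 2.91 and 2.45 CPM in MG2, 16.3 to 20.9 CPM in MT1, and 90.2, 89.2 and 84.6 CPM in MT2. The order of the groups was that of Ptgs2, except that the MG1 and MG2 libraries overlapped. The log2 fold change was 2.52 ± 0.32 in mouse 1 (adjusted p = 3.81e-06) and 5.03 ± 0.22 in mouse 2 (adjusted p = 2.40e-12). The difference between the mice was -2.51 ± 0.51 (adjusted p = 6.88e-04), and it lost its call without MG1 replicate 1 (-1.49, adjusted p = 0.529) and when gland cells in tumor clusters were left out (-1.68, adjusted p = 0.0534).

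Ptges (chromosome 2, 30889471 to 30929863, minus strand), the inducible prostaglandin E synthase, was higher in tumor than in gland in mouse 2 and showed no change past the threshold in mouse 1. Its libraries had 61.6 and 68.2 CPM in MG1, 111.4 and 82.5 CPM in MG2, 39.3 to 78.4 CPM in MT1, and 558.9, 554.8 and 544.0 CPM in MT2. MT1 overlapped MG1, and every MT2 library was above every other library. The log2 fold change was 0.00 ± 0.23 in mouse 1 (adjusted p = 1) and 2.51 ± 0.23 in mouse 2 (adjusted p = 2.60e-08), and these differed by -2.51 ± 0.31 (adjusted p = 4.86e-06).

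Of the other prostaglandin E synthases, Ptges2 rose in mouse 1 and did not pass the test in mouse 2. Ptges3 passed in neither mouse in the main edgeR fit, with TMM and all libraries. Ptges2 (chromosome 2, 32395896 to 32405772, plus strand) had 22.9 and 16.2 CPM in MG1, 28.4 and 20.5 CPM in MG2, 34.0 to 47.4 CPM in MT1 and 23.3 to 29.7 CPM in MT2. It was higher in MT1 than in MG1 (log2 fold change 0.87 ± 0.24, adjusted p = 0.00446), and in MT2 against MG2 its value was 0.10 ± 0.19 (adjusted p = 0.661). The difference between the mice, 0.77 ± 0.31, missed the threshold (adjusted p = 0.051) but passed it with RLE size factors (0.76, adjusted p = 0.0481) and in 9 of the 12 fits that left out 1 library. Ptges3 (chromosome 10, 128058954 to 128077272, plus strand) had 314.2 and 201.0 CPM in MG1, 220.2 and 217.4 CPM in MG2, 197.9 to 246.8 CPM in MT1 and 202.9 to 236.4 CPM in MT2, and all groups overlapped in range. Its log2 fold change of -0.30 ± 0.16 in mouse 1 (adjusted p = 0.117) did not pass the threshold, but did with RLE size factors (-0.42, adjusted p = 0.0307) and with DESeq2 (-0.43, adjusted p = 0.0209); in mouse 2 it was -0.00 ± 0.17 (adjusted p = 0.995).

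Hpgd (chromosome 8, 56294585 to 56321043, plus strand), which inactivates prostaglandin E2, went the other way from the cyclooxygenases. Its libraries had 7.89 and 1.80 CPM in MG1, 17.9 and 23.3 CPM in MG2 and 0 to 1.1 CPM in MT1. In MT2 there was 1 UMI in all 3 libraries together, in replicate 3, against 185 UMIs in MG2. The pooled level of MG2 was 947 times that of MT2, with a 95% counting interval of 168 to 37590. That ratio rests on leaving out the stromal cells: with all cells there were 17 UMIs in MT2 and 187 in MG2, the log2 fold change in mouse 2 was -5.53 (adjusted p = 7.19e-08) and the difference between the mice 2.76 (adjusted p = 0.0236). The fall passed the test in mouse 1 (log2 fold change -3.04 ± 0.58, adjusted p = 2.71e-04) and in mouse 2 (adjusted p = 2.85e-10), and the difference between the mice was 5.70 ± 0.99 (adjusted p = 1.73e-04), a fitted size that depends on the prior count because MT2 has 1 UMI. In mouse 1 it rests on the 20 UMIs of MG1 replicate 1, without which it was -1.15 with adjusted p = 0.605 (1 Hpgd UMI then stands for MG1).

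The receptors moved in opposite directions. Ptger2 (chromosome 14, 44988195 to 45003820, plus strand) had 1.58 and 5.38 CPM in MG1, 2.01 and 2.00 CPM in MG2, 4.86 to 9.78 CPM in MT1 and 9.41, 10.3 and 10.1 CPM in MT2, so that MT1 overlapped MG1. It was higher in MT2 than in MG2 (log2 fold change 2.29 ± 0.34, adjusted p = 1.20e-05). In mouse 1 it was 1.48 ± 0.49 (adjusted p = 0.0159), and 0.34 (adjusted p = 0.765) without MG1 replicate 1 and 1.34 (adjusted p = 0.0534) with DESeq2. The difference between the mice, -0.82 ± 0.68, did not pass (adjusted p = 0.36).

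Ptger4 (chromosome 15, 5206661 to 5244187, minus strand) had 13.4 and 14.4 CPM in MG1, 8.50 and 8.0 CPM in MG2, 2.30 to 4.86 CPM in MT1, and 0.842, 0.0805 and 0.581 CPM in MT2. No 2 groups overlapped. Its log2 fold change was -1.85 ± 0.41 in mouse 1 (adjusted p = 9.62e-04) and -3.97 ± 0.44 in mouse 2 (adjusted p = 3.17e-07), and the difference was 2.12 ± 0.61 (adjusted p = 0.00911). Ptger4 overlaps Ttc33 on the other strand and Ptger2 overlaps antisense models. Ptgs1 also overlaps a model on the other strand, and Ptges and Hpgd each overlap a model on their own strand. Whether the counting used strand is not stated, so the low counts of Ptger2, Ptger4 and Hpgd are uncertain.

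Between the tumors, Ptgs1 (-2.25 ± 0.12, adjusted p = 2.49e-11) and Ptges (-3.11 ± 0.17, adjusted p = 1.73e-11) were lower in MT1 than in MT2, as Ptgs2 was. Ptger4 (2.85 ± 0.42, adjusted p = 8.79e-06) and Ptges2 (0.56 ± 0.15, adjusted p = 0.00334) were higher in MT1. Hpgd had 15 UMIs in MT1 and 1 in MT2, a pooled ratio of 31.7 with a 95% counting interval of 4.88 to 1335, and its call was lost with all cells in the sums (0.92, adjusted p = 0.263). Ptger2 was lower in MT1 (-0.60 ± 0.21, adjusted p = 0.0195), a call lost with DESeq2 (-0.55, adjusted p = 0.0633) and in 5 of the 12 fits that left out 1 library.

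**Figure D1:**
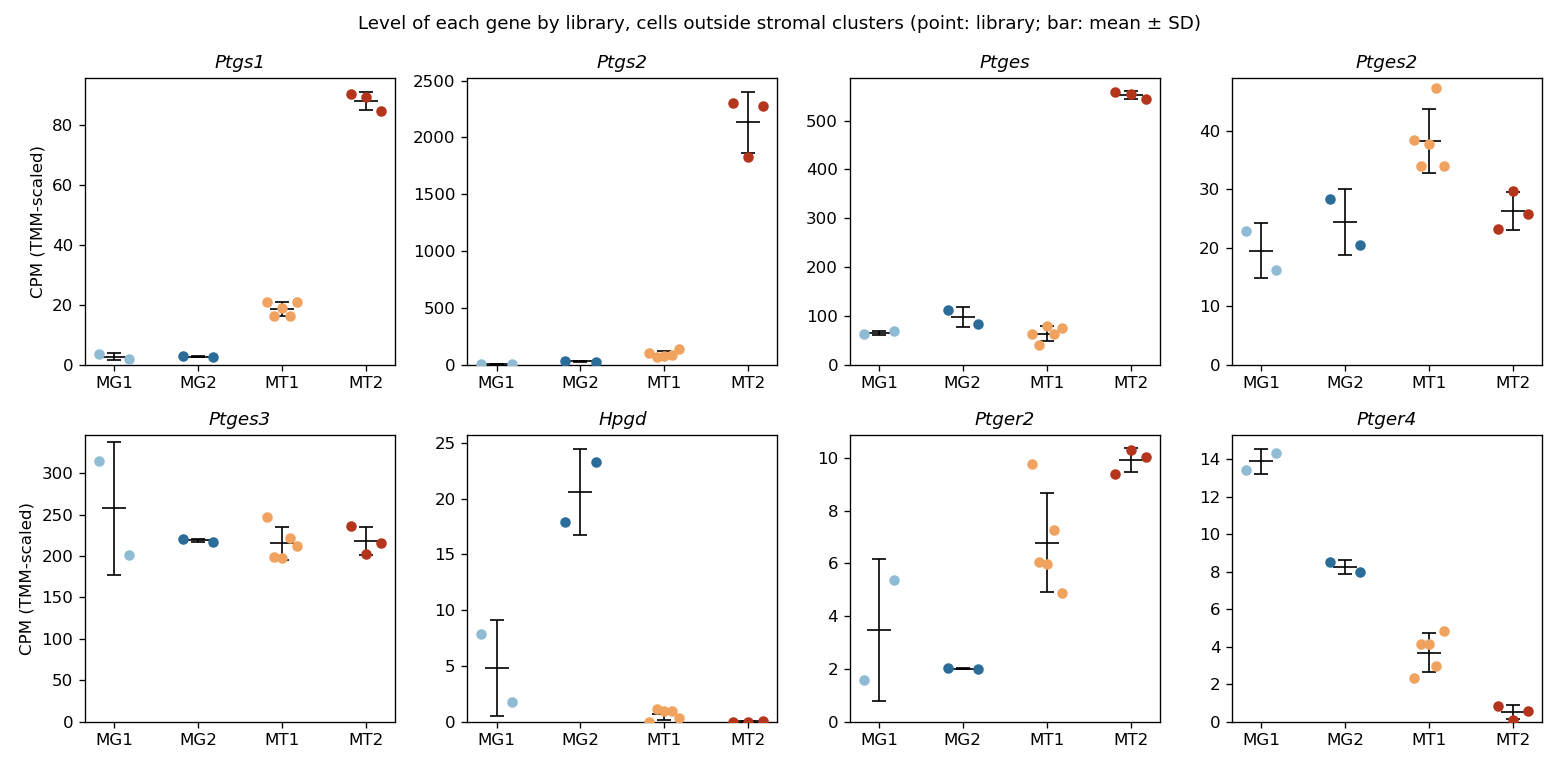
Level of each gene in every library, in TMM-scaled CPM on a linear axis from 0; each point is a library of MG1, MG2, MT1 or MT2 and the bar is the mean ± SD. Ptgs2 reached 1825 to 2299 CPM in MT2 and at most 135.5 CPM elsewhere, while Ptger4 was highest in MG1 (13.4 and 14.4 CPM).

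Of the 8 genes, 4 were called higher and 2 lower in MT1 against MG1, where 32.3% of the 13690 genes tested were called higher and 27.1% lower. In MT2 against MG2 the counts were again 4 and 2, with 36.5% of all genes higher and 30.5% lower. The median log2 fold change of the 8 was 0.44 and 1.2, beside 0.11 and 0.08 over all genes tested. With so many genes called, 6 of 8 is close to the background and is not read as a result about the 8 as a set. For the difference between the mice, 2 of the 8 were called higher and 3 lower (23.5% and 20.4% of all genes), and for MT1 against MT2 3 were higher and 4 lower (32.4% and 36.3%). With the 2 animals as replicates (4 sums, mouse as block), 0% of 15003 genes were called by edgeR, with 2198 genes at an unadjusted p under 0.05, and Ptgs2 had a log2 fold change of 4.99 ± 0.93 (adjusted p = 0.317). DESeq2 on the same sums called 1341 genes and 3 of the 8, namely Ptgs1, Ptgs2 and Hpgd.

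**Figure D2:**
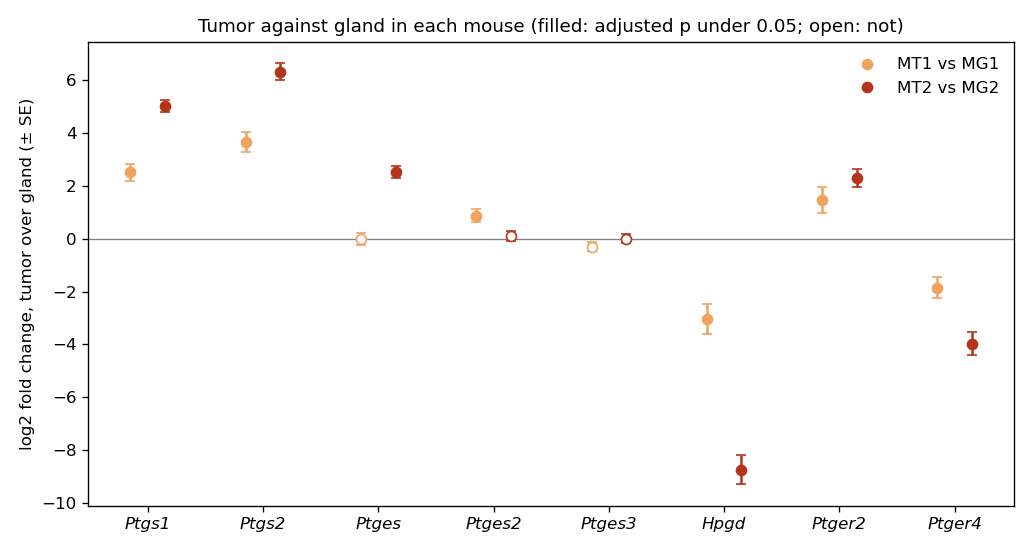
Log2 fold change of tumor over gland with its standard error, for mouse 1 (orange) and mouse 2 (red); filled points passed an adjusted p of 0.05. Ptgs1, Ptgs2 and Ptger2 lie above 0 and Hpgd and Ptger4 below 0 in both mice, and Ptges lies at 0.00 in mouse 1 and 2.51 in mouse 2.

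The share of positive cells gave the same picture for the cyclooxygenases. Each cell was thinned to 1000 UMIs, because deeper cells show more genes, and all cells reached that depth. A Ptgs2 UMI was found in 0.332% and 0% of cells of the MG1 libraries, 1.40% and 2.09% in MG2, 3.99% to 8.81% in MT1 and 66.9%, 66.6% and 68.7% in MT2. Averaged over the mice, the share was 35.8 percentage points higher in tumor than in gland (5.84 in mouse 1 and 65.7 in mouse 2). With the stromal cells kept in, it was 2.38 points in mouse 1 and 61.9 points in mouse 2. By an exact two-sided permutation test within mouse, adjusted over the 8 genes, p was 0.00952, and 0.00476 before adjustment, the smallest that the 210 arrangements allow.

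Among the others, Ptgs1 (by 4.29 points) and Ptger2 (0.797 points) had higher shares in tumor and Ptger4 a lower one (a difference of -1.18 points), each with adjusted p = 0.00952 by the exact permutation test. The Ptger2 share did not pass without thinning (1.11 points, exact permutation adjusted p = 0.257), nor the Ptger4 share at 500 UMIs (-0.24 points, exact permutation adjusted p = 0.114). The Hpgd share was lower (-0.921 points, exact permutation adjusted p = 0.0381), by -0.0966 points in mouse 1 and -1.745 points in mouse 2. Its call was lost in 6 of the 12 tests that left out 1 library and at 500 UMIs (exact permutation adjusted p = 0.0533). The Ptges2 share did not pass (0.428 points, exact permutation adjusted p = 0.371). For Ptges the difference was 0.0219 points in mouse 1 and 29.3 points in mouse 2. Their mean of 14.7 points did not pass (exact permutation adjusted p = 0.0599), but did with all cells and without MT1 replicate 2 (both 0.0381). The Ptges3 share was lower (-4.62 points, exact permutation adjusted p = 0.0152); this went with a CPM that was not called and did not pass without thinning (adjusted p = 0.0686) or at 500 UMIs (0.147).

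Ptgs2 differed from the other genes also in the UMIs per positive cell. In MT2, 8644 of 9864 cells had a UMI before thinning, with a median of 5 and up to 120 UMIs in 1 cell. In MT1, 798 of 7499 cells were positive with a median of 1 and a highest of 18. Ptger2 and Ptger4 never exceeded 4 UMIs in a cell, and Ptger4 had 1 UMI in 94.4% of its 18 positive MT2 cells. At these counts a cell without a UMI cannot be called a cell without the transcript.

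Cells were then grouped by clusters, named from marker lists. Clusters were made from the same counts, and Ptgs2 and Grem1 are among the leading genes of 1 of them, so the levels by cell type are descriptions and carry no test. Intervals are 95% exact Poisson (CPM on the plain UMI total) or exact binomial (shares, thinned) and cover counting error only.

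Among the named cell types of the glands, the level of Ptgs2 was highest in stromal cells. Fibroblast-like cells had 304.9 CPM in MG1 (257.6 to 358.4) and 485.5 CPM in MG2 (416.1 to 563.3). Endothelial-like cells of MG2 had 357.8 CPM (282.4 to 447.2). In the epithelium, the basal-like cells had 22.5 and 29.2 CPM in MG1 and MG2, luminal secretory-like cells 4.04 and 13.9 CPM, and luminal hormone-sensing-like cells 7.09 and 9.26 CPM. Fibroblast-like cells were 14.8% of MG1 cells and held 84.97% of its Ptgs2 UMIs. In MG2 they were 5.87% of cells and held 35.4%, and endothelial-like cells held 15.7%.

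In MG2, 47 cells fell into a cluster made mostly of MT1 cells (cluster 6, mesenchymal-like). They were 2.01% of MG2 cells and held 139 of its 491 Ptgs2 UMIs (28.3%). When gland cells in tumor clusters were left out, the Ptgs2 log2 fold change in mouse 2 was 7.37 in place of 6.32, and the difference between the mice -3.78 in place of -2.65. At a finer clustering resolution, 47 MG2 cells and 18 MT2 cells formed a cluster of their own led by Flnc and H19. What they are was not tested.

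In MT1, Ptgs2 lay mostly in mesenchymal-like and fibroblast-like cells. Cluster 6 had 429.3 CPM (409.0 to 450.5) and a UMI in 30.6% of its 1364 cells. The epithelial-like clusters 2 and 4 had 6.12 CPM (4.65 to 7.91) and 6.16 CPM (4.34 to 8.49), with a UMI in 0.582% and 0.408% of cells. Cluster 6 made up 17.7% of MT1 cells and held 84.9% of the Ptgs2 UMIs. The fibroblast-like cells had the higher level, 627.3 CPM (541.3 to 723.1) with a UMI in 34.9% of 132 cells, and held 9.70% of the UMIs in 1.72% of the cells. Cluster 6 ranged from 369.1 to 566.1 CPM over the 5 MT1 libraries, and cluster 2 from 3.61 to 8.47 CPM. The MT1 epithelial-like clusters lay within the range of the gland's luminal cells.

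Ptgs1 and Ptges were higher in cluster 6 than in the epithelial-like clusters of MT1. Ptgs1 had 59.9 CPM there (52.4 to 68.1), against 8.66 and 6.99 CPM in clusters 2 and 4, and Ptges 158.2 CPM (145.9 to 171.2), against 32.1 and 60.8 CPM. Ptges2 lay in the opposite order, with 22.5 CPM in cluster 6 and 48.5 and 34.3 CPM in clusters 2 and 4. Ptger4 had 4.33 and 4.50 CPM in clusters 2 and 4 and 1.29 CPM (0.419 to 3.01) in cluster 6.

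In MT2 all 3 tumor clusters carried Ptgs2, Ptges and Ptgs1. Cluster 1, led by Ptgs2 and the chemokines Cxcl2 and Cxcl5, had 3074 CPM of Ptgs2 (3047 to 3101) with a UMI in 85.7% of 4046 cells. Cluster 3, high in proliferation genes, had 1324 CPM (1306 to 1342; 58.7% of cells), and cluster 5, led by Medag and Mgp, 964.3 CPM (943.4 to 985.5; 47.9%). Ptges followed the same order, with 603.6, 485.2 and 342.3 CPM. Ptgs1 was nearly level over these clusters, at 84.9, 74.7 and 81.6 CPM.

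Hpgd was highest in the luminal secretory-like cells of MG2, and Ptger4 in secretory-like, basal-like and fibroblast-like cells of the glands. Luminal secretory-like cells had 38.3 CPM of Hpgd in MG2 (32.1 to 45.3) and 8.90 CPM in MG1, hormone-sensing-like cells 13.4 and 6.44 CPM, and basal-like cells 1.62 CPM in MG2 and 0 UMIs in MG1. In the MT2 clusters 3 and 5 Hpgd had 0 UMIs. The fibroblast-like cells of MT2 held 16 of the 17 Hpgd UMIs of that tumor (18.7 CPM, 10.7 to 30.3). Ptger4 was at 24.3 CPM in luminal secretory-like cells of MG1 (16.4 to 34.6) and 13.3 CPM in those of MG2, at 12.9 and 17.9 CPM in their basal-like cells and at 18.7 and 27.9 CPM in their fibroblast-like cells. Hormone-sensing-like cells had 3.22 and 4.09 CPM of Ptger4, close to the MT1 epithelial-like clusters.

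Ptges in the glands was highest in luminal secretory-like cells, with 110.0 CPM in MG1 (92.3 to 130.1) and 154.3 CPM in MG2 (141.6 to 167.8). These cells held 65.4% and 61.8% of the Ptges UMIs of their glands, and 2.89% and 9.98% of the Ptgs2 UMIs. Ptges3 was found in every type, between 156.3 and 328.5 CPM. Ptgs1 outside the tumor cells was highest in endothelial-like cells. These had 69.7 CPM in MG2 (39.0 to 115.0, from 15 UMIs) and 47.9 CPM in MT1 (17.6 to 104.3, from 6 UMIs).

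**Figure D3:**
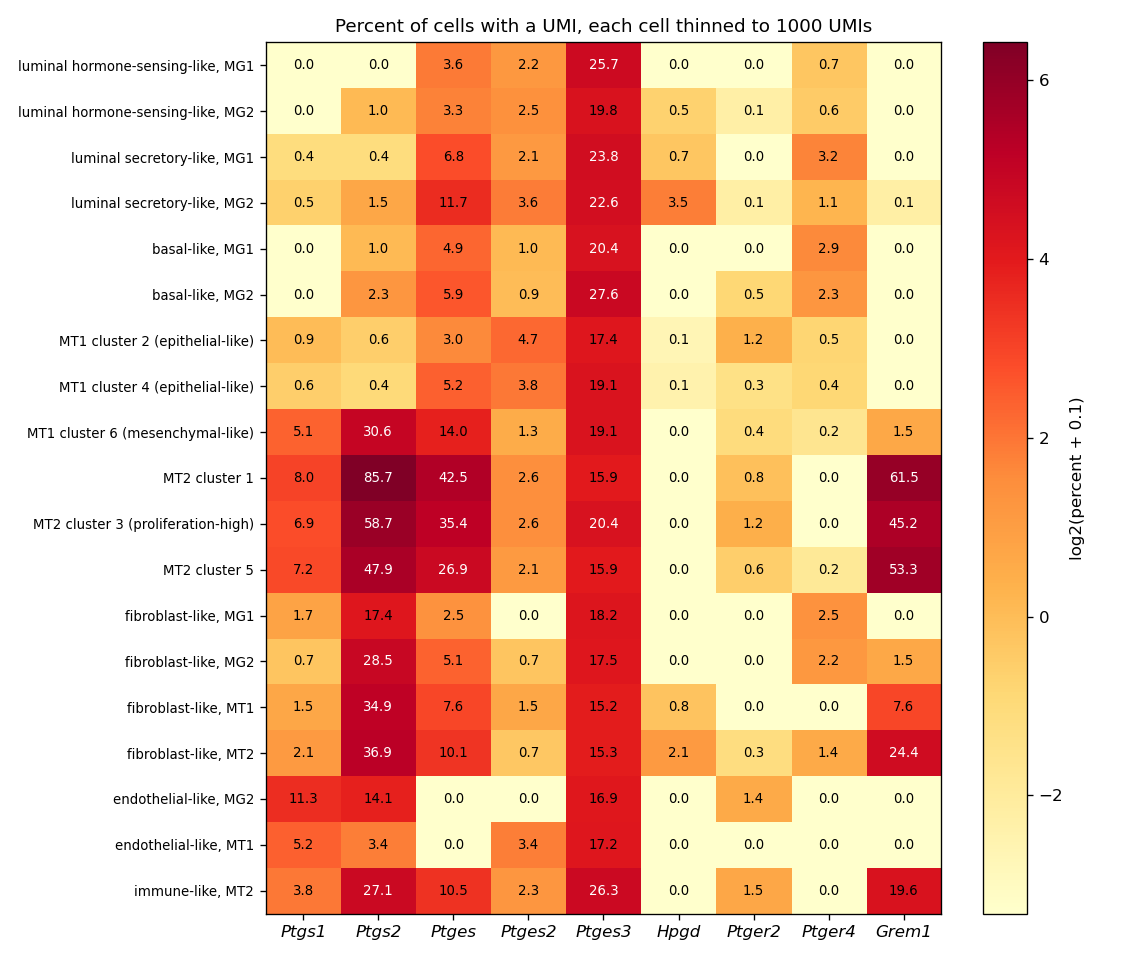
Percent of cells with a UMI of each gene and of Grem1 by cell type and group, for types with 50 or more cells, each cell thinned to 1000 UMIs; color gives log2(percent + 0.1) and the number in each box the percent. Ptgs2 runs from 0 in MG1 hormone-sensing-like cells to 85.7% in MT2 cluster 1, and Hpgd is highest in MG2 luminal secretory-like cells (3.50%).

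Free RNA can give UMIs in cells that do not make a transcript. Immune-like cells of MT2, which should lack Grem1, had a Grem1 UMI in 19.6% of 133 cells and a Ptgs2 UMI in 27.1%, at a median depth of 2199 UMIs against 3097 in cluster 1. The share of cells in MT2 clusters 1, 3 and 5 was above this for both genes (45.2% to 61.5% for Grem1). There were 2.46 Ptgs2 UMIs per Grem1 UMI in cluster 1, 1.85 in cluster 3, 0.969 in cluster 5, 1.57 in fibroblast-like and 1.92 in immune-like cells. Fibroblast-like cells had 761.6 CPM of Ptgs2 in MT2 and 304.9 to 627.3 CPM in the other groups, and how much of the MT2 value is free RNA was not tested.

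Markers of other cells were read in the cells used for the fits. The 9 fibroblast markers summed to 280.8 to 804.3 CPM in the gland libraries, 324.7 to 459.7 CPM in MT1 and 3644 to 4105 CPM in MT2, with none at 0. In MT2 against MG2, 5 of the 9 were called higher and 1 lower, and in MT1 against MG1 0 were higher and 6 lower. The 7 macrophage markers summed to 58.0 to 74.3 CPM in MT2 and 4.52 to 11.3 CPM elsewhere. The 9 immune markers found summed to 46.0 to 121.7 CPM in MT1, 6.27 to 34.1 CPM in the glands and 11.6 to 34.8 CPM in MT2. The part of such other cells in the tumor levels of Ptgs2 and Ptges was not tested. Mitochondrial genes took 4.57% to 11.9% of UMIs, the most in MG1.

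Ptgs2 and Grem1 were each found in most MT2 cells, and cells with one had the other somewhat more often. Grem1 had 1157, 985.6 and 1098 CPM in the MT2 libraries, 1.73 to 6.05 CPM in MT1, 0.448 and 1.11 CPM in MG2, and 0 UMIs in MG1. Against 3 counts over MG1, MT1 was at least 4.72-fold higher. After thinning, 972 of 2485 cells of MT2 replicate 1 had both genes, 1731 of 4760 cells of replicate 2 and 1047 of 2619 cells of replicate 3. Independence would give 906.1, 1652 and 1006 cells. The ratio of observed to expected was 1.07, 1.05 and 1.04 (mean 1.05, SD 0.017 over 3 libraries), where the shares of cells allow at most 1.46 to 1.5. A Grem1 UMI was found in 58.5%, 54.6% and 58.2% of cells with Ptgs2 and in 46.5%, 47.1% and 50.9% of cells without.

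Within clusters the ratio was 1.03, 1.01 and 1.01 in cluster 1, where the shares allow at most 1.14 to 1.2, 1.07, 1.05 and 1.02 in cluster 3, and 1.05, 1.04 and 1.04 in cluster 5. The odds ratio was 1.62, 1.35 and 1.34 over all cells of the libraries. In cluster 1 it was 1.769, 1.127 and 1.279, higher in replicate 1 and lower in the others. In cluster 3 it was 1.365, 1.24 and 1.082 and in cluster 5 1.223, 1.188 and 1.148, below the value over all cells in every library. With the cells of each library divided by depth into shallow, middle and deep, the observed over expected ratio was 1.12, 1.09 and 1.01 in replicate 1, 1.06, 1.06 and 1.02 in replicate 2, and 1.05, 1.04 and 1.03 in replicate 3. All of these ratios of observed to expected lay above 1, the closest at 1.005 in the deep cells of replicate 1 and 1.008 in cluster 1 of replicate 2.

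**Figure D4:**
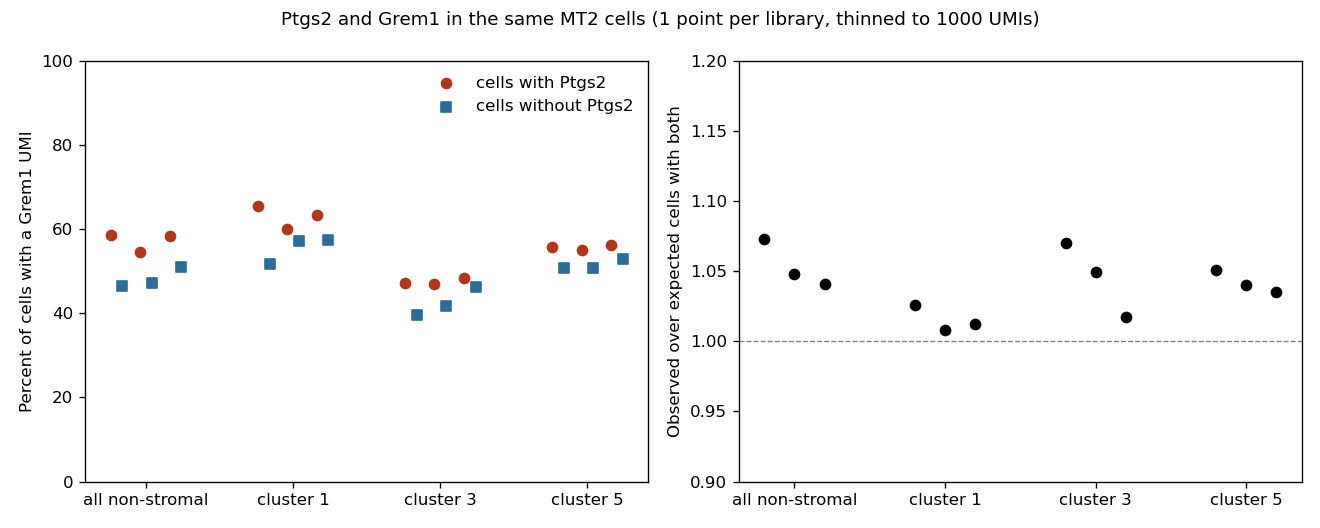
Left, percent of MT2 cells with a Grem1 UMI among cells with (red circles) and without (blue squares) a Ptgs2 UMI; right, observed over expected number of cells with both, on an axis that runs from 0.9 to 1.2 around independence (dashed line). Each point is a library; over all non-stromal cells the ratio is 1.04 to 1.07, and in cluster 1 it is 1.01 to 1.03.

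Grem1 was not the gene with the highest ratio of observed to expected cells with Ptgs2. Of 3199 genes detected in 5% or more of thinned MT2 cells, Grem1 ranked 119 by the lowest ratio of the 3 libraries (1.04) and Ptges 76 (1.05). The 10 highest were the cytokine genes Lif (1.27), Il6 (1.25), Csf3 (1.2) and Il11 (1.17), Plet1 (1.25), Phlda1 (1.16), Odc1 (1.16), Thbd (1.16), the chemokine gene Cxcl3 (1.15) and the orphan nuclear receptor gene Nr4a2 (1.15). These 10 were found in 5.58% to 13.9% of cells and Grem1 in 53.7%, all less often than Ptgs2, so the same upper bound of 1.49 over the 3 libraries together holds for them. Ptgs1 ranked 1359 (0.974) and Ptges3 2052 (0.953).

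The pairs with Ptgs2 in MT1 are given apart. For genes found less often than Ptgs2, the shares of cells allow ratios up to 16.7 in MT1 and 1.49 in MT2. The sizes of the ratios are therefore not compared between the tumors. Ptges was found in 12.3% of cells with Ptgs2 and 5.35% of cells without, a ratio of 2.13 to expectation (1.79 to 3.27 over the 5 libraries). Ptgs1 had a ratio of 4.15, with 29 cells against 6.99 expected, and Ptges2 of 0.238, with 4 cells against 16.8 expected. Cluster 6 held 84.9% of the Ptgs2 UMIs of MT1, and its part in these ratios was not tested. Grem1 had 20 positive cells in MT1, 9 of them with Ptgs2, too few for a ratio per library.

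Over 19 sums of a cell type in a group, the genes whose pattern was most like that of Ptgs2 were B4galt5 (Pearson r = 0.939 of log2(CPM + 10)), Fbln2 (0.931), Oaf (0.928), Igfbp4 (0.920) and Col5a3 (0.905). For Ptgs1 they were 4930503L19Rik (0.952), Scoc (0.941), Abcb1a (0.936), Nt5e (0.927) and 4921524J17Rik (0.923), for Ptges Zpr1 (0.905), Setdb1 (0.891), Rcor3 (0.886), Tmem120a (0.881) and Denr (0.880), and for Ptges3 Cdc5l (0.945), Eif4a1 (0.858), Nasp (0.846), Ppp4r3a (0.824) and Hnrnpc (0.812). The sums share libraries and tumors, and 6805 genes were compared, so these values are descriptions. Ptges2, Hpgd, Ptger2 and Ptger4 were under 50 CPM in all sums and were not compared.

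The wider lists are read against all genes tested, of which 36.5% were higher and 30.5% lower in mouse 2, and 32.3% and 27.1% in mouse 1. The counts were not tested against these shares, and no list is read as moving as a whole. Of 11 genes tested from a list around arachidonic acid release, 7 rose and 3 fell in MT2 against MG2, and 4 rose and 1 fell in MT1 against MG1. Not all of them release it, and Acsl4 and Lpcat3 return it to phospholipids. Pla2g4a, the cytosolic phospholipase A2 that feeds cyclooxygenases, had 31.5 ± 2.04 CPM in MG2 and 221.2 ± 30.4 CPM in MT2 (log2 fold change 2.81 ± 0.29, adjusted p = 1.23e-07), and in mouse 1 its value was -0.12 ± 0.35 (adjusted p = 0.784). Pla2g7, which hydrolyses platelet-activating factor, went the opposite way, with 219.4 ± 18.2 CPM in MT1 and 2.33 ± 1.08 CPM in MT2. It rose in mouse 1 (3.40 ± 0.36, adjusted p = 5.88e-07) and fell in mouse 2 (-1.78 ± 0.42, adjusted p = 0.00106).

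Of 5 other terminal synthases tested, 3 rose and 1 fell in mouse 2 and 2 rose and 1 fell in mouse 1. Akr1b3, an aldose reductase that can make prostaglandin F2α, rose in MT2 (2.28 ± 0.24, adjusted p = 2.09e-07). Of 8 transport and breakdown genes, 5 rose and 2 fell in mouse 2, and 2 rose and 1 fell in mouse 1. Slco2a1, the transporter that takes prostaglandins up, fell in both mice, from 315.6 ± 23.2 CPM in MG1 to 78.9 ± 15.9 CPM in MT1 (-1.98 ± 0.16, adjusted p = 4.12e-08) and from 213.9 ± 8.24 CPM in MG2 to 88.1 ± 8.78 CPM in MT2 (-1.28 ± 0.18, adjusted p = 4.49e-06). Abcc4, an exporter of prostaglandins, rose in MT2 from 1.23 ± 0.467 to 24.7 ± 2.20 CPM (4.31 ± 0.32, adjusted p = 2.21e-09).

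Of 3 other genes tested from the list of prostanoid receptors and their partners (Ptgfr, Ptgfrn and Pparg), 3 rose in mouse 2 and 1 fell in mouse 1. Pparg, a nuclear receptor of prostaglandin J2 derivatives, moved in opposite directions (-3.06 ± 0.46 in mouse 1 and 2.24 ± 0.27 in mouse 2, adjusted p = 2.36e-05 and 1.06e-06). Of 8 genes of the lipoxygenase arm, among them Ephx2, Ggt5 and Alox5ap, which are not lipoxygenases, 2 rose and 4 fell in mouse 2 and 1 rose and 2 fell in mouse 1. The lipoxygenase genes Alox12e, Alox15 and Aloxe3 fell in mouse 2, with 113, 51 and 59 UMIs in MG2 and 0 in MT2. In the other tumor, Alox12e was among the leading genes of the epithelial-like cluster 4 of MT1. Alox5ap, the activating protein of 5-lipoxygenase, which myeloid cells also express, rose in MT2 from 1.11 ± 0.310 to 80.8 ± 16.7 CPM (6.15 ± 0.36, adjusted p = 7.74e-11). The macrophage markers given above, 58.0 to 74.3 CPM in MT2 against 4.52 to 11.3 CPM elsewhere, moved with it, and their part in it was not tested.

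Of 16 genes of the signaling around EP2 and EP4, which include G proteins, arrestins, effectors and phosphodiesterases, 8 rose and 5 fell in mouse 2 and 4 rose and 4 fell in mouse 1. Gnas, which encodes the stimulatory G protein subunit, rose in both (1.00 ± 0.15 and 2.25 ± 0.17, adjusted p = 3.17e-05 and 2.26e-09), and Pde4d, a cyclic AMP phosphodiesterase, fell in both (-0.76 ± 0.22 and -1.02 ± 0.18, adjusted p = 0.00612 and 6.66e-05). Of 10 genes known to induce or follow Ptgs2, 6 rose and 3 fell in mouse 2 and 3 rose and 5 fell in mouse 1. Il6 was at 156.6 CPM in MT2 and 10.3 CPM in MG2 (3.93 log2, adjusted p = 1.21e-10), and it fell in mouse 1 from 11.4 CPM in MG1 to 1.94 CPM in MT1 (-2.48 log2, adjusted p = 3.99e-05).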

How the data were processed

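Single-cell RNA of 12 Drop-seq libraries was analysed. The authors deposited whole-number UMI counts for each cell, not normalized; they ran the Drop-seq tools and STAR against GRCm38.p6, and every deposited cell has at least 800 genes. The 8 genes and all lists were chosen with earlier results of these data known. Library numbers follow accession order and pair nothing. No column belonged to another sample.

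Clustering used scanpy 1.11.5 with leidenalg 0.10.2. Stromal clusters (997 cells) were left out of the fits, and 1 cluster of basal and endothelial cells was divided after it was seen. Doublets were not removed: a caller flagged 44 cells (0.208%), which is below what makes it usable. Counts were summed per library and tested with edgeR 4.0.16 (TMM, filterByExpr, quasi-likelihood F test, all 12 libraries, adjusted p under 0.05). Standard errors are the log2 fold change over the square root of F. Scripts were tested on simulated data. Named genes are the 8, Grem1, the 5 most like each of 4 members, the 10 highest by co-detection with Ptgs2, leading genes of clusters, and called genes of the wider lists, fewer than 20. The last were picked for their roles after their values were seen, not strictly by fold change. Alternatives were DESeq2 1.42.0, RLE, other cell sets, other thinning and each library left out. Intervals and floors (3 counts) cover counting error only. Libraries of 1 group differed beyond sampling noise (chi-square per degree of freedom 3.50 to 33.0), so each counts once. Gland and tumor of 1 mouse pair by the labels. Library batch is not labelled and cannot be told apart from group.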

Additional observations from a re-analysis of the deposited data

Results flagged for a closer look

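The tumor-gland change differed between the mice for 5 of the 8 genes, by the interaction term of the edgeR fit (mouse 1 minus mouse 2, log2 scale). Of all 13690 genes tested, 23.5% were called higher and 20.4% lower for this difference, so the count of 5 is not read as a result about the 8 as a set. The difference was -2.51 for Ptgs1 (adjusted p = 6.88e-04), -2.65 for Ptgs2 (6.74e-04), -2.51 for Ptges (4.86e-06), 5.70 for Hpgd (1.73e-04) and 2.12 for Ptger4 (0.00911). The cyclooxygenases rose more, and Hpgd and Ptger4 fell more, in mouse 2. Ptges was called higher in mouse 2 and was not called in mouse 1 (0.00 ± 0.23). Without MG1 replicate 1 the differences of Ptgs1 (-1.49, adjusted p = 0.529) and Ptgs2 (-2.01, adjusted p = 0.265) did not pass; MG1 is then 1 library of 71 cells. Without MG1 replicate 2 they were -2.55 (adjusted p = 0.0011) and -2.65 (0.00127). With 1 tumor per mouse, tumor and animal cannot be told apart. No library of MT1, the 1 group with enough libraries to look, stood apart in any gene.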

How the results depend on the processing

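No call of the 8 genes turned its direction under the alternatives run. The Ptgs2 difference between the mice lost its call without MG1 replicate 1, which leaves 1 library of 71 cells in that group, and over all libraries left out in turn it ranged from -2.85 to -2.01. In the fit of 4 sums, DESeq2 called 1341 genes and 3 of the 8, and gave Ptgs2 4.99 with adjusted p = 3.36e-08, where edgeR called 0 genes with the mouse block and 0 with no replicate block; the cause was not tested. The mean ratio of Ptgs2 and Grem1 in MT2 cells was 1.02 without thinning, 1.09 at 500 UMIs and 1.08 with 2 or more UMIs of each gene, and the mean odds ratio was 2.49 without thinning and 2.70 with 2 or more UMIs, against 1.44 in the main setting; the cause was not tested. Keeping the divided cluster whole, chosen after seeing the data, gave Ptges2 a call for the difference between the mice (0.84, adjusted p = 0.0294). RLE moved the median of all genes in mouse 1 from 0.11 to 0. Low counts of Hpgd, Ptger2 and Ptger4 limit what a library can show.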
